A study of Mus musculus with 12 samples.

Results

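The ATF4 response was followed in mouse macrophages through 38 genes, found by gene symbol among 37620 gene identifiers. All 38 were matched. They comprise 12 regulators and feedback genes, 5 enzymes of serine and one-carbon metabolism, 4 enzymes of asparagine, proline and cysteine metabolism, 5 amino acid transporters and 12 cytosolic tRNA synthetases. The cells were bone marrow-derived macrophages of C57BL/6 mice, grown in primary culture and used on day 7. RNA was sequenced in 12 libraries, 3 in each of 4 groups: normoxia with 25 mM NaCl (normoxia-NaCl), normoxia with 25 mM sodium lactate (normoxia-lactate), hypoxia at 1% oxygen with 25 mM NaCl (hypoxia-NaCl) and hypoxia at 1% oxygen with 25 mM sodium lactate (hypoxia-lactate). Every group thus received an added sodium salt. Whether the libraries within a group derive from different animals or different dishes is not stated, so the p-values cover no more than the variation among these libraries, part or all of which could be technical.

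ATF4 is a transcription factor whose messenger RNA is translated more when the initiation factor eIF2 is phosphorylated, which occurs when amino acids are short, when unfolded proteins collect in the endoplasmic reticulum or when other stresses activate an eIF2 kinase. With partners of the C/EBP family, ATF4 binds a composite DNA element and switches on genes that make amino acids, import them and load them onto tRNA. Its targets also include factors that end the response, such as Trib3, which binds and restrains ATF4, and Ppp1r15a, which directs a phosphatase to eIF2. Since ATF4 is controlled largely at translation, its own mRNA need not follow its activity.

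The composite element was looked for first, since it is the sequence feature that the members are known for. RefSeq promoter windows of 300 bases (250 before the transcription start and 50 after it, build GRCm38.p6) were given for 32 of the 38 genes and numbered 36. Cth, Slc7a5, Cars, Lars, Nars and Wars had no window. The core of the C/EBP-ATF response element, TGATGNAA on either strand, occurred in 13 of the 36 windows (36.1%), against 3.97% of 32851 windows of all genes. It was found in 5 of 8 windows of tRNA synthetases and in none of the 6 windows of serine and one-carbon genes. The stretches below show it in genes of 4 roles, written 5′ to 3′ along the gene with the matched letters in capitals. In Asns (chr6:7693210-7693256, minus strand) the match starts 23 bases before the transcription start, and in Chac1 (chr2:119351025-119351080, plus strand) 193 bases before it. Slc7a11 (chr3:50443629-50443703, minus strand) has 2 matches, on opposite strands, starting 66 and 47 bases before the start. Nupr1 (chr7:126625549-126625604, minus strand) and Vldlr (chr19:27216796-27216851, plus strand) have theirs at 110 and 200 bases. Among the synthetases the distance is 112 bases in Aars (chr8:111033706-111033761, plus strand), which has a second match outside the stretch shown, starting 10 bases after the start. It is 30 bases in Gars (chr6:55037947-55038000, plus strand) and 15 in Tars (chr15:11399659-11399697, minus strand).
Asns: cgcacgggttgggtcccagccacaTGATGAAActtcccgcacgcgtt
Chac1: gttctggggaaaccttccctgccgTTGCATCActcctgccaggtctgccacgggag
Slc7a11: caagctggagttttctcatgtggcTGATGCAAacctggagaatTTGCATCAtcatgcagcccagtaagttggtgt
Nupr1: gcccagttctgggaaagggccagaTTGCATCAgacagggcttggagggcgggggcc
Vldlr: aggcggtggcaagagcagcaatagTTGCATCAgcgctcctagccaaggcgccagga
Aars: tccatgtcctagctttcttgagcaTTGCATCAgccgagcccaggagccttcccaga
Gars: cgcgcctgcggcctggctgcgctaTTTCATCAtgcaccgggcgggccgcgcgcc
Tars: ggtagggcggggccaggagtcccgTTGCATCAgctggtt

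Ddit4 and Stc2 were the members called higher in at least 1 comparison of the 12-library edgeR fit, and had no TGATGNAA in their windows. Over the same libraries DESeq2 also called Cebpg and Vldlr higher, and limma-voom Vldlr and Slc7a11. Of these, Vldlr and Slc7a11 carry TGATGNAA, as shown above, and Cebpg does not. Ddit4 and Stc2 are shown with ACGTG and GCGTG, the core of the element bound by hypoxia-inducible factors, again on either strand and in capitals. Ddit4 (chr10:59951857-59951981, minus strand) carries ACGTG at 187 and GCGTG at 115 bases before the start, and Stc2 (chr11:31370264-31370311, minus strand) carries GCGTG at 240 bases, on the opposite strand, and at 231 bases. These short cores are common: 19.6% of all windows hold ACGTG and 32.4% hold GCGTG, and the members' shares were 36.1% and 69.4%. Vldlr, which was also higher in hypoxia-NaCl, holds neither core in its windows. Among members lower there, Asns holds 1 ACGTG and 2 GCGTG and Aldh18a1 holds 2 and 3, while Mthfd2 and Atf5 hold neither. Whether the cores go with the direction of change was not tested. A match is a run of letters and not evidence that a factor binds there.
Ddit4: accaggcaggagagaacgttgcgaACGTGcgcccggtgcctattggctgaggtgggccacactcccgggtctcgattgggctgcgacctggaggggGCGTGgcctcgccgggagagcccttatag
Stc2: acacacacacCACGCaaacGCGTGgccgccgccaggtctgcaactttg

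The libraries held 22705978 to 49885085 gene counts, and 14616 genes passed the filter on low counts, all 38 members among them. The oxygen label was checked on Egln3, a hypoxia-inducible prolyl hydroxylase, which was higher by 4.91 ± 0.25 (log2, SE) in hypoxia-NaCl than in normoxia-NaCl. Macrophage markers summed to 33673 to 49493 CPM (counts scaled to the size of the library), and lymphocyte, dendritic, erythroid and mast cell markers summed to at most 2.21 CPM in any library. Library 3 of hypoxia-lactate stood apart from the other 11: it had 11437 genes with at least 10 reads against 13198 to 14767, a mitochondrially encoded share of 0.486% against 2.04% to 4.75%, and a median rank correlation with the other libraries of 0.906 against 0.966 to 0.987. The upper end of the mitochondrial range was library 1 of normoxia-NaCl. That library also gave the lower ends of the gene and correlation ranges, 13198 and 0.966, and the highest share not uniquely aligned, 18.4%. Hypoxia-lactate 3 and normoxia-NaCl 1 are called both outlying libraries below. Results that rest on hypoxia-lactate 3 are therefore given with and without it, and in bulk RNA fewer cells of a type and less RNA per cell cannot be told apart.

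The response genes covered a wide range of levels in normoxia-NaCl. Per kilobase of exon (RPKM, the mean CPM of the group divided by exon length), Slc3a2, the heavy chain shared by several amino acid exchangers, was highest at 125, followed by Atf4 at 71.0, the related factor Atf5 at 47.8, and the asparaginyl and seryl synthetases Nars at 42.0 and Sars at 38.9. All 12 synthetases lay between 5.02 and 42.0. The lowest were Stc2 at 0.03, Vldlr at 0.04, Cth at 0.13 and Pycr1 at 0.14. Not every member passed the low-count filter in every group. Stc2 reached the filter's level of 0.309 CPM in none of the 6 normoxic libraries and in all 6 hypoxic ones, so it was tested only because of the group in which it is high.

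**Figure D1:**
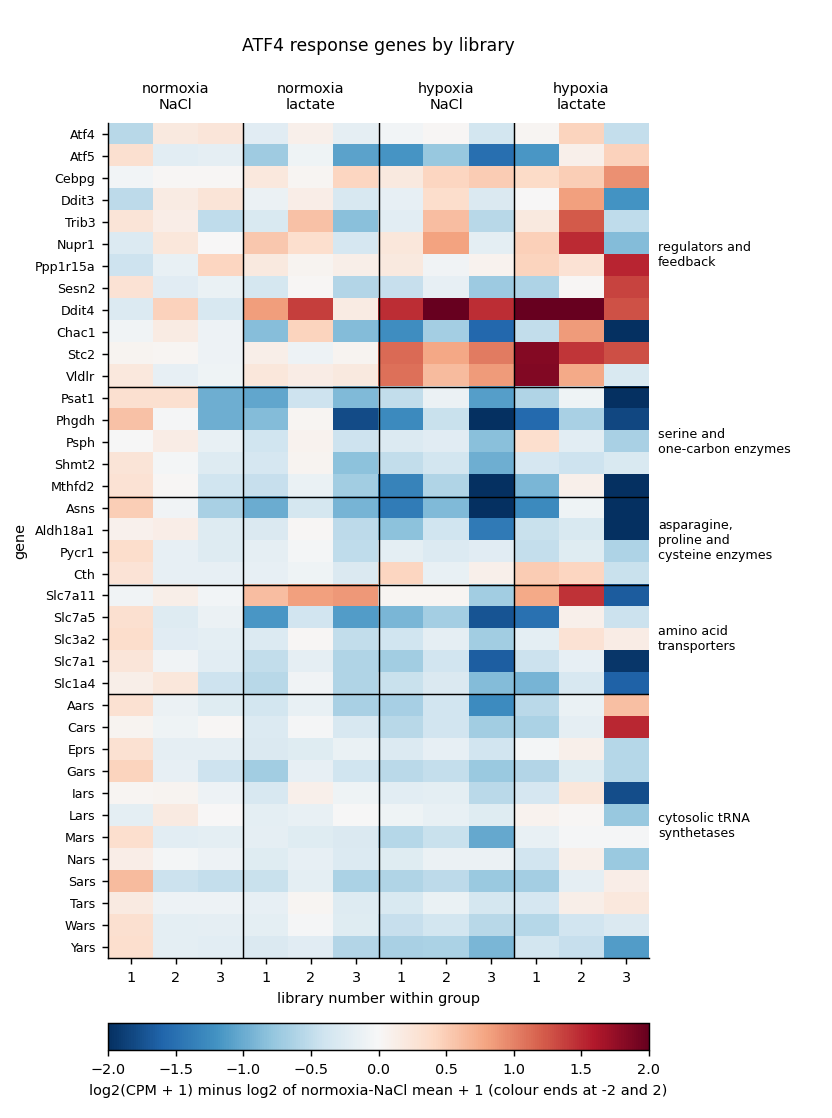
Each row is 1 of the 38 genes and each column 1 library; colour is log2(CPM + 1) minus log2 of the normoxia-NaCl mean + 1, with the scale ending at -2 and 2. Most rows below the first block are blue in hypoxia-NaCl, Ddit4, Stc2 and Vldlr are red there, and hypoxia-lactate 3 departs from the other libraries of its group in both directions.

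Low oxygen in NaCl medium split the response genes. Ddit4, Stc2 and Vldlr were higher in all 3 hypoxia-NaCl libraries than in any normoxia-NaCl library, while most biosynthetic enzymes, transporters and tRNA synthetases were lower. Of the 38 fitted log2 fold changes 30 were negative, with a median of -0.46 where the median of all 14616 genes was 0.01. Over all 12 libraries no single member passed edgeR's quasi-likelihood F test at a Benjamini-Hochberg adjusted p of 0.05. An unadjusted p under 0.05 was found in 11 of the 38 members and in 948 of all 14616 genes tested. At the adjusted threshold that fit called few genes at all: 0.267% of those tested as higher and 0.0137% as lower.

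Separation of the libraries shows the same split without a model, on the same libraries and scaling, so it is not independent of the fit. In 4 members (Cebpg, Ddit4, Stc2 and Vldlr) every hypoxia-NaCl library lay above every normoxia-NaCl library, and in 19 every one lay below. Of all genes tested 12.8% were separated upward and 12% downward. The 19 comprised 10 of the 12 tRNA synthetases (all but Eprs and Lars), the one-carbon enzymes Mthfd2 and Shmt2, Psph, Asns, Aldh18a1, the transporters Slc7a5 and Slc7a1, Atf5 and Chac1. When libraries of the same number were set against each other, 22 members were lower in hypoxia at all 3 numbers and 5 were higher, where the shares over all genes were 21.5% and 22.5%. The members moved together between libraries of 1 group, as shown further on, so these genes are not independent of each other.

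Ddit4, an inhibitor of mTORC1 that both ATF4 and hypoxia-inducible factors are known to switch on, measured 2.51, 4.79 and 2.37 CPM in normoxia-NaCl and 10.8, 17.0 and 10.7 CPM in hypoxia-NaCl. Stc2, a secreted glycoprotein, stood at 0.18, 0.16 and 0.06 CPM and at 1.49, 0.93 and 1.32 CPM in these groups, and Vldlr, a lipoprotein receptor, at 0.69, 0.29 and 0.37 CPM and at 2.10, 1.24 and 1.61 CPM. None of the 3 genes overlapped between the groups. Their log2 fold changes were 1.99 ± 0.53 (adjusted p = 0.321), 3.26 ± 0.67 (adjusted p = 0.0966) and 1.90 ± 0.82 (adjusted p = 0.711) in edgeR's quasi-likelihood test. Hypoxia-lactate 3 is in neither group but shares their estimate of the spread. With it left out, Ddit4 (1.98 ± 0.37) and Stc2 (3.29 ± 0.61) rose, each with an adjusted p of 0.0167 in the same test, and 1.23% of all genes tested were called higher. Without normoxia-NaCl 1 as well, Stc2 was the 1 member still called, where 151 of 15243 genes were called higher. Stc2 was tested only through the hypoxic libraries.

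**Figure D2:**
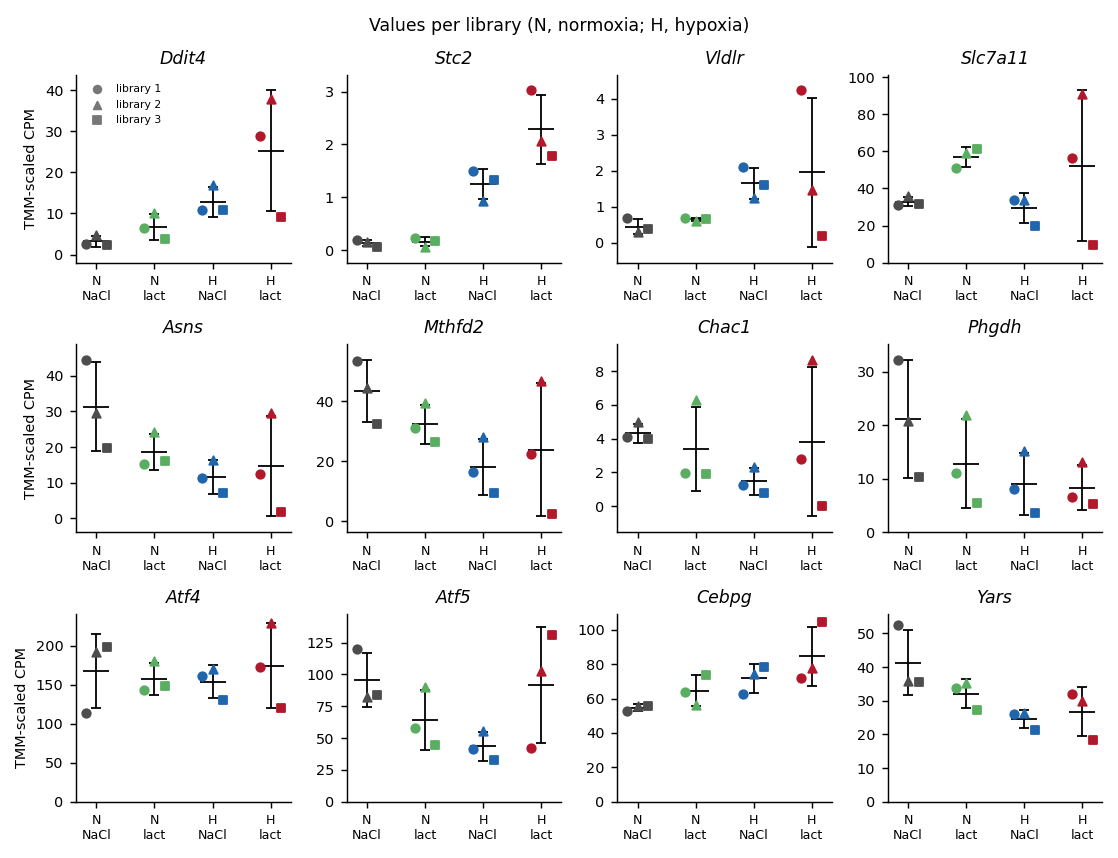
TMM-scaled CPM of 12 genes in each library (circles, triangles and squares for libraries 1, 2 and 3), with the group mean and SD as black bars. Ddit4 and Stc2 lie higher in both hypoxic groups, Slc7a11 higher in both lactate groups apart from hypoxia-lactate 3, and the group means of Asns, Mthfd2, Phgdh and Yars are highest in normoxia-NaCl.

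The remaining regulators were closer to their normoxic level. Atf4 mRNA measured 113, 191 and 198 CPM in normoxia-NaCl and 161, 170 and 130 CPM in hypoxia-NaCl, overlapping ranges with a log2 fold change of -0.12 ± 0.26. Ddit3 (CHOP, a stress-induced C/EBP factor), Trib3 and Ppp1r15a had log2 fold changes of -0.01, 0.04 and 0.07. Cebpg, a dimer partner of ATF4, was separated upward at 52.7, 55.8 and 56.0 against 62.6, 74.2 and 78.7 CPM, a difference of 0.39 ± 0.19 with an adjusted p of 0.792. Atf5, itself an ATF4 target, was separated downward, at 120, 82.2 and 83.8 CPM in normoxia and 41.6, 55.9 and 32.8 CPM in hypoxia. Nupr1, a stress-induced chromatin protein, overlapped between the groups, at 9.002, 13.2 and 11.2 CPM in normoxia and 13.2, 20.2 and 9.58 CPM in hypoxia, for 0.36 ± 0.51. Chac1, which degrades glutathione, differed in the same direction as Atf5, from 4.07, 4.98 and 3.95 to 1.26, 2.33 and 0.80 CPM.

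Serine and one-carbon enzymes were lower in hypoxia-NaCl for all 5 genes, with a median log2 fold change of -0.60. Mthfd2, the mitochondrial methylenetetrahydrofolate dehydrogenase, measured 53.2, 44.2 and 32.5 CPM in normoxia-NaCl and 16.5, 28.2 and 9.55 CPM in hypoxia-NaCl. Phgdh, which catalyses the first step of serine synthesis, measured 32.3, 20.9 and 10.2 CPM and 8.14, 15.2 and 3.63 CPM. Mthfd2 did not overlap between the groups, and Phgdh did, because library 2 of hypoxia-NaCl lay above library 3 of normoxia-NaCl. Their log2 fold changes were -1.26 ± 0.70 and -1.23 ± 0.62.

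Asns, which makes asparagine from aspartate and glutamine and carries the element shown above, had the most negative log2 fold change among members of at least 5 CPM in the 12-library fit, -1.43 ± 0.69 with an adjusted p of 0.784 in edgeR's quasi-likelihood test. Its values were 44.5, 29.7 and 19.7 CPM in normoxia-NaCl and 11.3, 16.4 and 7.11 CPM in hypoxia-NaCl. Aldh18a1, the first enzyme of proline synthesis, measured 28.3, 29.1 and 22.1 CPM and 14.6, 19.8 and 9.36 CPM, without overlap, and differed by -0.86 ± 0.45. Pycr1, the last enzyme of proline synthesis, and Cth, which forms cysteine from cystathionine, were below 1 CPM in all 12 libraries and their differences, -0.73 ± 0.88 and 0.53 ± 0.98, were smaller than their errors.

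All 5 transporters had negative log2 fold changes under low oxygen in NaCl medium, from -0.17 ± 0.52 for Slc7a11, the cystine importer, to -1.21 ± 0.51 for Slc7a5, the light chain of the large neutral amino acid exchanger. Slc7a5 measured 11.7, 7.58 and 8.45 CPM in normoxia-NaCl and 4.42, 5.43 and 2.09 CPM in hypoxia-NaCl. Slc3a2, its heavy chain, differed by -0.41 ± 0.23. The 12 tRNA synthetases were likewise all negative, between -0.16 (Lars and Nars) and -0.75 (Yars), with a median of -0.51. The tyrosyl enzyme Yars measured 52.5, 35.8 and 35.5 CPM in normoxia-NaCl and 26.0, 26.3 and 21.4 CPM in hypoxia-NaCl. The groups did not overlap, and library 1 of normoxia-NaCl was the highest for 10 of the 12 synthetases. Without that library and hypoxia-lactate 3 the synthetase median was -0.29, still with 0 of 12 positive, and the median of all 38 members was -0.29 with 7 positive.

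The labels do not say whether libraries of the same number belong together. In these 2 groups same-numbered libraries deviated together at all 3 numbers, with correlations of 0.142, 0.397 and 0.19. The correlations were also positive at all 3 numbers for lactate in normoxia (0.002, 0.150 and 0.230) and in hypoxia (0.034, 0.309 and 0.071). With the number as a block and all 12 libraries, the count of members called stayed at 0. With the block and without hypoxia-lactate 3, an alternative added after the data were seen, 15 members passed the same edgeR test. Ddit4, Stc2 and Vldlr rose in that fit, where 2.47% of genes were called higher, and Stc2 was again tested only through the hypoxic libraries. Asns, Mthfd2, Phgdh, Shmt2, Aldh18a1, Chac1, Atf5, Slc7a1, Aars, Cars, Mars and Yars fell, 12 of 38, where 2.62% of genes were called lower. Asns fell by 1.49 ± 0.28 (adjusted p = 0.0106) and Mthfd2 by 1.37 ± 0.23 (adjusted p = 0.00633), and Yars by 0.74 ± 0.15 (adjusted p = 0.0138) on the log2 scale. Leaving out normoxia-NaCl 1 as well gave 14 members, the 15 apart from Shmt2, where 431 of 15243 genes were called higher and 404 lower. Ddit4 and Stc2 were also called without hypoxia-lactate 3 and no block. Neither the block alone nor that removal alone called any member lower. Over all libraries and without the block, limma-voom with quality weights called Yars lower (-0.53 ± 0.13, adjusted p = 0.0381), where 209 of 14616 genes were called lower. That voom fit also called Stc2 (adjusted p = 0.00481), Ddit4 (adjusted p = 0.00741) and Vldlr (adjusted p = 0.0297) higher, where 316 genes were called higher. DESeq2 over all libraries called Stc2 (adjusted p = 2.33e-05) and Ddit4 (adjusted p = 0.0169) higher, where 117 of 21658 genes were called higher.

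In lactate medium, Stc2 was again the member with the highest fold change under low oxygen, and the biosynthetic genes lay on both sides of 0. Of the 38 members 22 had positive log2 fold changes against normoxia-lactate, with a median of 0.14 (-0.03 over all genes), and all 12 regulators were positive. Stc2 rose by 3.86 ± 0.66 (adjusted p = 0.0396, edgeR's quasi-likelihood test), from 0.23, 0.06 and 0.18 CPM in normoxia-lactate to 3.03, 2.06 and 1.78 CPM in hypoxia-lactate, without overlap. It was the only member called, where 0.198% of all genes were called higher. As stated above, Stc2 was tested only through the hypoxic libraries, in which it is high. The call was kept on leaving out hypoxia-lactate 2 or 3 and lost on leaving out any other single library. It was also lost in a fit of only these 2 groups, with an adjusted p of 0.594 in the same test. Ddit4 measured 6.56, 9.998 and 3.71 CPM in normoxia-lactate and 28.8, 37.9 and 9.20 CPM in hypoxia-lactate. The third of these libraries, hypoxia-lactate 3, overlapped with normoxia, and the difference was 1.91 ± 0.52 (adjusted p = 0.209). Without hypoxia-lactate 3, Ddit4 rose by 2.30 ± 0.38 (adjusted p = 0.0139) and Stc2 by 4.01 ± 0.61 (adjusted p = 0.00891), with 0.65% of genes called higher.

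No biosynthetic gene was called in this comparison. Mthfd2 measured 31.1, 39.3 and 26.4 CPM in normoxia-lactate and 22.4, 46.5 and 2.31 CPM in hypoxia-lactate, a difference of -0.44 ± 0.69 that became 0.09 ± 0.39 without hypoxia-lactate 3. Asns measured 15.2, 24.3 and 16.0 CPM and 12.4, 29.6 and 1.72 CPM, for -0.34 ± 0.68, or 0.18 ± 0.41 without that library. Hypoxia-lactate 3 thus set the sign of both. Phgdh and Aldh18a1 were negative in the 12-library fit and in all 21 alternative fits. Phgdh measured 11.1, 21.9 and 5.38 CPM in normoxia-lactate and 6.54, 13.2 and 5.28 CPM in hypoxia-lactate, for -0.62 ± 0.62, or -0.38 ± 0.63 without hypoxia-lactate 3. Aldh18a1 measured 21.6, 27.0 and 18.1 CPM and 19.3, 21.3 and 4.87 CPM, for -0.55 ± 0.45, or -0.14 ± 0.27 without that library. The groups overlapped for both genes. The synthetases had a median of 0.01, with 6 of 12 positive. In this comparison 3 members were separated upward (Stc2, Ppp1r15a and Mars) and 1 downward (Wars), of 38 members, where 8.23% and 11.3% of all genes were so separated. Hypoxia-lactate 3 was extreme in both directions: it held 189 CPM of Cars against 42.1 and 57.9 CPM in the other 2 libraries, 109 CPM of Sesn2 against 26.9 and 42.8 CPM, and 0.47 CPM of Psat1 against 12.2 and 17.8 CPM. In normoxia-lactate Cars measured 54.1, 64.5 and 52.6 CPM and Sesn2, a stress-induced inhibitor of mTORC1, 32.7, 42.5 and 27.6 CPM, so for Cars hypoxia-lactate 3 alone lay above that group.

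**Figure D3:**
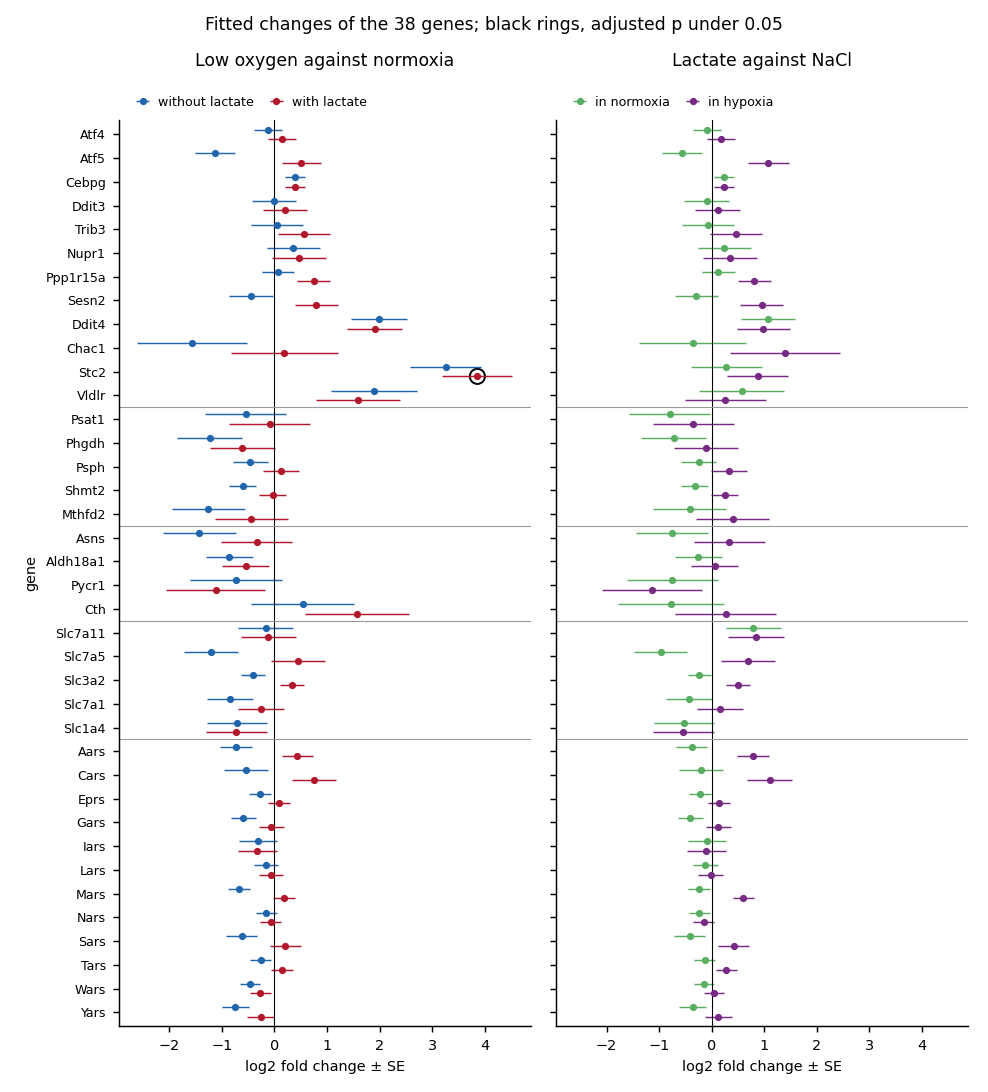
Log2 fold changes with SE of the 38 genes in the 12-library fit, for low oxygen (left) and for lactate (right); black rings mark an adjusted p under 0.05. The points for low oxygen without lactate lie mostly left of 0 (30 of 38) and those with lactate on both sides (22 positive), and Stc2 with lactate is the only ringed gene.

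Lactate alone, in normoxia, called no member and no gene: 0.0% of genes were called higher and 0.0% lower, with 227 genes at an unadjusted p under 0.05 and 0 of the members among them. DESeq2 called 5 genes and no member. Of the 38 log2 fold changes 31 were negative, with a median of -0.25 (0.01 over all genes), and without both outlying libraries the median was -0.13. Slc7a11 was separated upward. It measured 31.3, 35.7 and 31.7 CPM in normoxia-NaCl and 50.9, 59.2 and 61.1 CPM in normoxia-lactate, for 0.79 ± 0.53, and all 3 lactate libraries exceeded all 3 NaCl libraries. Cebpg, at 63.6, 56.3 and 74.0 CPM with lactate, was the other member separated upward, and Slc7a5, Nars and Yars were separated downward. Slc7a5 measured 3.56, 6.86 and 3.73 CPM in normoxia-lactate, for -0.97 ± 0.51. Psat1, the aminotransferase of serine synthesis, measured 23.8, 23.9 and 9.15 CPM in normoxia-NaCl and 8.70, 13.99 and 9.87 CPM in normoxia-lactate, for -0.80 ± 0.77. Nupr1 measured 16.5, 14.3 and 8.67 CPM in normoxia-lactate, for 0.24 ± 0.51, and both genes overlapped between the groups. Over all genes 5.6% were separated upward and 6.16% downward.

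Under low oxygen, lactate again called no member and no gene (0.0% higher and 0.0% lower), with 1664 genes at an unadjusted p under 0.05, among them 7 members. DESeq2 called 118 genes and no member. Here 31 of 38 differences were positive, with a median of 0.27 where all genes had -0.03. Ppp1r15a, Stc2 and Mars were separated upward and none downward, and over all genes 6.69% were separated upward. Ddit4 measured 10.8, 17.0 and 10.7 CPM in hypoxia-NaCl and 28.8, 37.9 and 9.20 CPM in hypoxia-lactate, with hypoxia-lactate 3 alone below the NaCl libraries, a difference of 0.98 ± 0.51 (adjusted p = 0.46). Slc7a11 measured 34.0, 33.9 and 19.9 CPM in hypoxia-NaCl and 56.4, 90.9 and 9.73 CPM in hypoxia-lactate. The first 2 hypoxia-lactate libraries exceeded all hypoxia-NaCl libraries and hypoxia-lactate 3 lay below them, and the difference was 0.84 ± 0.53, or 1.34 ± 0.24 (adjusted p = 0.107) without that library. Atf5 measured 42.0, 102 and 131 CPM in hypoxia-lactate, 2 of them above every hypoxia-NaCl library, for 1.08 ± 0.38 (adjusted p = 0.432) or 0.74 ± 0.36 without hypoxia-lactate 3. The difference of Cars, 1.1004 ± 0.42, became 0.16 ± 0.16 without that library. Psat1, at 13.2, 17.4 and 8.33 CPM in hypoxia-NaCl, and Phgdh had differences of -0.35 ± 0.77 and -0.11 ± 0.62, which turned to 0.21 ± 0.39 and 0.14 ± 0.63 without it. Nars measured 155, 168 and 169 CPM in hypoxia-NaCl and 139, 196 and 109 CPM in hypoxia-lactate, for -0.15 ± 0.20, or 0.04 ± 0.16 without it, with overlap. With the block and without both outlying libraries, again added after the data were seen, Slc7a11 (1.25 ± 0.19, adjusted p = 0.00526), Chac1 (1.67 ± 0.35, adjusted p = 0.0224) and Ddit4 (1.16 ± 0.20, adjusted p = 0.00806) rose in edgeR's quasi-likelihood test, where 0.781% of genes were called higher.

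The interaction asks whether the effect of lactate differs between oxygen levels. It was positive in 32 of the 38 members, with a median of 0.53 (-0.04 over all genes), and in 37 of 38 without hypoxia-lactate 3, with a median of 0.59. Members with a promoter window were also counted without normoxia-NaCl 1 as well. The interaction was then positive in 11 of 13 with TGATGNAA (median 0.48) and 18 of 19 without it (median 0.49). Without hypoxia-lactate 3 alone these were 13 (0.54) and 18 (0.71). No member and no gene passed (0.0% called higher). The largest among members of at least 5 CPM were Slc7a5 at 1.66 ± 0.72, Atf5 at 1.65 ± 0.54 and Cars at 1.30 ± 0.59. Without hypoxia-lactate 3 these were 1.64 ± 0.68, 1.30 ± 0.48 and 0.36 ± 0.22. Slc7a5 measured 2.65, 10.1 and 6.59 CPM in hypoxia-lactate, and Atf5 57.8, 90.1 and 44.9 CPM in normoxia-lactate. Cars measured 67.9, 62.1 and 67.0 CPM in normoxia-NaCl and 44.5, 50.0 and 40.2 CPM in hypoxia-NaCl. The 3 lowest interactions at that level were those of Ddit4, at -0.08 ± 0.71, Iars, at -0.01 ± 0.52, and Cebpg, at 0.00 ± 0.24. Without hypoxia-lactate 3 they were 0.32 ± 0.52, 0.38 ± 0.25 and -0.18 ± 0.21. Iars, the isoleucyl synthetase, measured 56.8, 57.8 and 51.9 CPM in normoxia-NaCl, 44.5, 59.6 and 52.3 CPM in normoxia-lactate, 48.0, 48.2 and 37.8 CPM in hypoxia-NaCl and 43.5, 65.5 and 15.5 CPM in hypoxia-lactate. The lowest adjusted p of any member was 0.902 in edgeR's quasi-likelihood test, so a difference between the 2 lactate effects was not shown for any single gene. The comparisons of low oxygen and of lactate share libraries, so their values are not independent.

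Low oxygen and lactate together, against normoxia-NaCl, called 2 members, both higher, where 1.17% of genes were called higher. Stc2 rose by 4.14 ± 0.69 (adjusted p = 0.0116) and Ddit4 by 2.97 ± 0.55 (adjusted p = 0.0189) in edgeR's quasi-likelihood test, and both were separated from normoxia-NaCl in all 3 libraries. Without normoxia-NaCl 1 only Stc2 was called, without normoxia-NaCl 2 only Ddit4, and without normoxia-NaCl 3 neither. A fit of only these 2 groups called neither, with adjusted p of 0.257 for Stc2 and 0.253 for Ddit4 in the same test. Here too Stc2 was tested only through the hypoxic libraries. Without hypoxia-lactate 3, Vldlr (2.71 ± 0.54, adjusted p = 0.0114) and Slc7a11 (1.16 ± 0.23, adjusted p = 0.0125) also rose, and 3.6% of genes were called higher. For Vldlr the library left out held 0.18 CPM against 4.23 and 1.46 CPM in the other 2. Ppp1r15a measured 32.4, 39.0 and 58.3 CPM in normoxia-NaCl and 59.3, 52.8 and 126 CPM in hypoxia-lactate, with 1 library overlapping, for 0.88 ± 0.31, or 0.38 ± 0.20 without hypoxia-lactate 3. Nupr1 measured 15.8, 33.02 and 5.64 CPM in hypoxia-lactate, on both sides of the normoxia-NaCl libraries, for 0.71 ± 0.51, or 1.13 ± 0.36 without that library. The 3 lowest differences among members of at least 5 CPM were those of Phgdh at -1.34 ± 0.62, Asns at -1.096 ± 0.68 and Psat1 at -0.89 ± 0.78, and without that library they were -1.09 ± 0.64, -0.57 ± 0.42 and -0.33 ± 0.40. Cebpg, at 72.1, 77.7 and 104 CPM in hypoxia-lactate, was separated upward as well as Stc2 and Ddit4, and Shmt2, Aldh18a1, Wars and Yars were separated downward, which makes 3 and 4 of 38 where all genes had 9.39% and 11.2%.

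Other genes of the pathway gave few calls, in a 12-library fit that called at most 235 of all 14616 genes in any comparison. The 13 genes for eIF2 kinases, their regulators and subunits of eIF2 and eIF2B had a median of -0.20 under low oxygen in NaCl medium, and 0 of 13 were called in any comparison. None of the 14 tested genes of 16 other ATF4-linked genes was called over all 12 libraries. Their median under low oxygen in NaCl medium was 0.33, with 8 positive and 6 negative, opposite in sign to the -0.46 of the 38 members. Without hypoxia-lactate 3, Gdf15, a secreted stress cytokine, fell by 1.71 ± 0.39 under low oxygen without lactate (adjusted p = 0.0463), from 15.2, 17.5 and 12.1 to 4.53, 5.90 and 3.28 CPM, a call that ended when normoxia-NaCl 1 was left out as well. Slc38a2, a neutral amino acid transporter, rose by 0.96 ± 0.21 with both together (adjusted p = 0.0209), and Aldh1l2, a mitochondrial folate enzyme, rose by 2.95 ± 0.46 under low oxygen with lactate (adjusted p = 0.0103), all in edgeR's quasi-likelihood test. Without hypoxia-lactate 3, 84 of 15088 genes were called lower in the comparison of Gdf15. In those of Slc38a2 and Aldh1l2, 3.6% and 0.65% of genes were called higher. The 11 other cytosolic synthetases and scaffold proteins had a median of -0.32 under low oxygen in NaCl medium, against -0.51 in the 12 member synthetases and -0.26 in the 17 mitochondrial synthetases. None of these was called over all 12 libraries. Without hypoxia-lactate 3 Farsb, a subunit of the phenylalanyl enzyme, fell by 0.75 ± 0.17 with both together (adjusted p = 0.0246, the same test), where 492 of 15088 genes were called lower. Of these lists only the other ATF4-linked genes held TGATGNAA, in 4 of 20 windows. Within the members, the 13 with the element had a median of -0.59 and the 19 with a window but no match had -0.46. Without both outlying libraries the order turned, at -0.30 and -0.35. Neither difference was tested.

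The members also differed between libraries of 1 group, and did so together. Among the 32 members with a mean of at least 5 CPM, library 2 was the highest of its group for 25 in normoxia-lactate, 27 in hypoxia-NaCl and 19 in hypoxia-lactate, where 37.5%, 30.7% and 28.2% of 10056 genes at that level had their highest value. In normoxia-NaCl library 1 was highest for 20 of 32 (43.3% of all genes). Library 3 was the lowest for 29 of 32 in hypoxia-NaCl (38.2% of all genes), for 21 in normoxia-lactate (36.7%), for 18 in hypoxia-lactate (46.3%) and for 17 in normoxia-NaCl (29.9%). Asns showed the pattern, at 24.3 CPM in normoxia-lactate 2 against 15.2 and 16.0 CPM, and at 16.4 CPM in hypoxia-NaCl 2 against 11.3 and 7.11 CPM. Neutrophil markers moved with the library number too: the 8 markers summed to 51.5, 30.5, 29.2 and 24.9 CPM in the 4 libraries numbered 2. They summed to 34.9 CPM in hypoxia-lactate 3, all of it S100a8 with the other 7 markers at 0, and to between 0.28 and 5.21 CPM in the other 7 libraries. S100a9, Ngp and Ltf, which were at 0 in hypoxia-lactate 3, were each higher in every library numbered 2 than in any other library. Not all 8 markers did so: Camp and Mpo were at 0 in every hypoxia-lactate library and Ly6g in every hypoxia-NaCl library. The 6 fibroblast markers summed to 25.2 CPM in hypoxia-NaCl 3 and to up to 100.3 CPM in hypoxia-NaCl 1. The part of these markers in the members' levels was not tested.

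**Figure D4:**
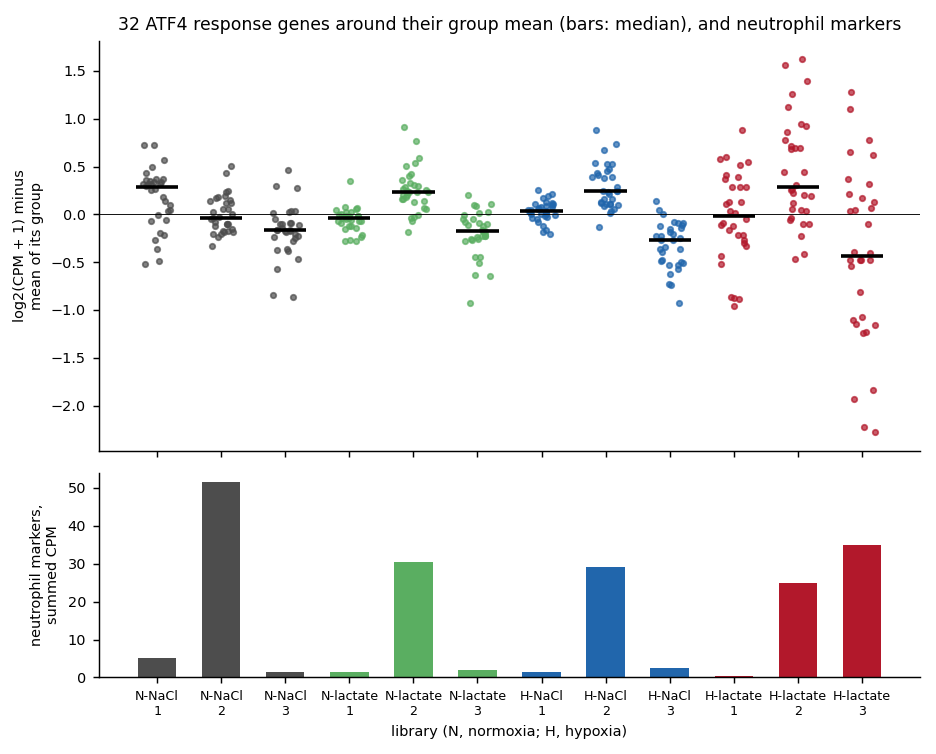
Upper panel: each point is 1 of 32 genes in 1 library, as log2(CPM + 1) minus the mean of its group, with the median as a bar. Lower panel: summed CPM of 8 neutrophil markers in the same libraries. In 3 of the 4 groups library 2 has the highest median, library 3 has the lowest in all 4, and the marker sum is high in the libraries numbered 2. In hypoxia-lactate 3 the sum is S100a8 alone, at 34.9 CPM.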

How the data were processed

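Per the labels' protocols, poly(A) RNA was selected and sequenced on an Ion Proton. The values are raw counts per Ensembl gene as the authors deposited them, with a column for each library. BWA, HTSeq and build mm9 are named in the submitters' processing notes. No annotation release or strand setting is given in the sources used here. Genes that overlap, run antisense to another gene or have processed pseudogenes are therefore uncertain. The 5 counters that name no gene held 8.34% to 18.4% (not uniquely aligned), 13.7% to 22.0% (outside genes), 2.02% to 5.48% (not aligned), 0.361% to 0.442% (ambiguous) and 0.0% (low quality) of the total over genes and counters, and were left out.

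The counts were tested in 1 fit over the 12 libraries with a mean per group, by the quasi-likelihood F test of edgeR 4.0.16 (R 4.3.3) after TMM scaling and a filterByExpr filter, and p-values were adjusted by Benjamini-Hochberg over 14616 genes, with a threshold of 0.05. The 6 comparisons were these: low oxygen without and with lactate, lactate in normoxia and in hypoxia, both together against normoxia-NaCl, and the interaction. A standard error is the size of the log2 fold change divided by the root of its F value. CPM values are TMM-scaled, and exon lengths are from a GENCODE annotation of build GRCm38, whose coordinates were not used for the counts. The code was tested on simulated data, and no 2 libraries were duplicates.

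Members, companion gene lists and cell type markers were chosen with earlier results of these data known. Any member could be named. Values per library were given for members past the threshold over all libraries or without hypoxia-lactate 3, and for the 3 highest and 3 lowest log2 fold changes of each comparison among members of at least 5 CPM; values of Atf4, Chac1, Yars, Slc7a5, Atf5, Cebpg, Cars, Sesn2, Psat1, Aldh18a1 and Nupr1 in comparisons beyond these were chosen after they were seen. Other genes were named where past the threshold in these fits, besides Egln3. Library numbers are shared by the groups. In hypoxia-NaCl and normoxia-NaCl same-numbered libraries deviated from their group means together at every number (correlations of 0.142 to 0.397), and in the other comparisons at least 1 number had a correlation below 0.1. Alternatives were RLE size factors, no filter, DESeq2 1.42.0, limma 3.58.1 voom with quality weights, the replicate block, fits of only the groups compared, and fits with libraries left out. Promoter windows are RefSeq's, of GRCm38.p6.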

Additional observations from a re-analysis of the deposited data

How the results depend on the processing

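Of the alternative values computed for named members, 747 kept their direction and side of the threshold, 37 passed it newly, 17 lost it and 54 changed sign; the cause was not tested. In the order low oxygen without and with lactate, lactate in normoxia and in hypoxia, both together and interaction, the 12-library fit called 0, 1, 0, 0, 2 and 0 members and 41, 33, 0, 0, 235 and 0 genes. DESeq2 called 2, 2 and 4 members for low oxygen without and with lactate and for both together and 148, 427, 5, 118, 1348 and 1 genes. Voom with quality weights called 4 (Yars lower among them), 3 and 4 members and 525, 737, 11, 16, 1078 and 2 genes. Fits of only the groups compared called 0 members in each of the first 5 comparisons, so every member call of the 12-library fit was lost, and 59, 3, 0, 0 and 6 genes. Without any filter 1 gene was called for lactate in normoxia. Leaving out 1 library in turn gave 0 to 2, 0 to 2 and 0 to 4 members in those 3 comparisons, 0 in the others, and 7 to 270, 3 to 130, 0 to 5, 0 to 6, 67 to 1035 and 0 genes. The highest counts came without hypoxia-lactate 3. Without that library and normoxia-NaCl 1 there were 1, 3 and 4 members and 188, 380, 3, 11 and 912 genes in the first 5 comparisons.

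With the replicate block 0, 1 and 2 members were called, the same counts as without it. With the replicate block and without hypoxia-lactate 3, added after seeing the data, 15, 2 and 6 members and 767, 261, 43, 16 and 2116 genes were called, and without normoxia-NaCl 1 too, also added, 14, 4, 0, 3, 7 and 0 members and 835, 1272, 117, 293, 1867 and 12 genes.

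Signs changed only for differences that had not passed the test. Under low oxygen with lactate, Mthfd2 (-0.44) was -1.37 to 0.089 on leaving out 1 library and 0.084 without both outlying ones, Cars (0.75) was -0.195 to 1.11, -0.15 with voom, -0.20 without both, -0.24 with the block and without hypoxia-lactate 3 and -0.23 with the block and without both, and Sesn2 (0.80) was -0.098 and -0.073 in those last 2 fits. For lactate in hypoxia, Psat1 (-0.35) was -1.001 to 0.21, 0.043 with voom, 0.21 without both and 0.016 with the block and without both. Phgdh (-0.11) was -0.59 to 0.51, 0.029 with voom, 0.016 with the block and 0.13 without both, and Nars (-0.15) was -0.39 to 0.038, 0.0056 with voom, 0.031 without both, and 0.013 and 0.020 in the 2 block fits. Nupr1 with both together (0.71) was -0.048 to 1.13. In the interaction, Cebpg (0.00) was -0.18 to 0.12 and 0.071 with RLE and 0.070 with DESeq2. Ddit4 (-0.08) was -0.48 to 0.32, 0.29 with voom, 0.45 without both, and 0.14 and 0.23 in the 2 block fits, and Iars (-0.01) was -0.48 to 0.38, 0.018 with RLE and DESeq2, 0.35 with voom, 0.36 without both, and 0.31 and 0.25 in the 2 block fits.

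Each group has 3 libraries, and the common coefficient of variation was 38.2% over all libraries and 21.2% without both outlying ones. Pycr1 and Cth, below 1 CPM in every library, were called in no fit.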

Other observations

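Across the 4 groups, mean Ddit4 was 3.22 ± 1.36 CPM (SD, n = 3) in normoxia-NaCl, 6.76 ± 3.15 in normoxia-lactate, 12.8 ± 3.58 in hypoxia-NaCl and 25.3 ± 14.7 in hypoxia-lactate. Lactate passed the threshold at neither oxygen level over all 12 libraries, and normoxia-lactate was not tested against hypoxia-NaCl. Lars2, the mitochondrial leucyl synthetase, was listed at 2372 to 5325 CPM over the 12 libraries. Whether all these reads come from the Lars2 transcript was not tested, and the strand setting of the counts is not given.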
